A study of Mus musculus with 50 samples.

Results

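Milk protein and milk fat genes were followed across 50 mouse mammary tumours. They are 9 named genes, namely the caseins Csn2, Csn1s1 and Csn3, the whey protein genes Wap and Lalba, Glycam1 and Lao1, whose products are secreted into milk, and Btn1a1 and Xdh, whose products coat the milk fat globule. The 9 were taken from 22180 genes that had a probe set of their own, and each was read by 1 probe set. All 9 passed the floor on the mean (4.09 log2) that left 18045 tested genes.

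Caseins are the main proteins of milk. Beta-casein (Csn2) and alpha-S1-casein (Csn1s1) bind calcium phosphate inside micelles, and kappa-casein (Csn3) sits on the surface of the micelle and keeps it in solution. In lactation prolactin acts through the kinase Jak2 and the transcription factor STAT5, together with glucocorticoids, to switch these genes on in the alveolar cells of the gland. Milk fat leaves the same cells as droplets wrapped in membrane, a step in which butyrophilin (Btn1a1) and xanthine dehydrogenase (Xdh) take part.

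The samples are biopsies of spontaneous mammary tumours from female mice of the cross labelled F1Bx, which joins (C57BL/6J x FVB/NJ) with FVB/NJ MMTV-Erbb2, each taken before a drug given by the labels as doxorubicin for the series and as docetaxel for its tumours. All 50 form 1 group, with no untreated gland, no response and no batch in the labels, so the relations described are those between tumours. The transgene is driven by the mouse mammary tumour virus promoter, which is active in mammary epithelium and responds to steroid hormones. The age of the mice and whether they had been pregnant are not given in the sources used here. Each tumour keeps its label, such as mid99. In bulk biopsies, fewer cells of a type and less RNA per cell cannot be told apart.

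Each tumour was measured once, on an Affymetrix array, and the number of arrays limits the precision. Some markers of luminal epithelium were high in the biopsies, with Epcam at 11.42 ± 0.46 log2 (SD, n = 50) and Krt8 at 9.94 ± 0.46, each lowest in mid79. Others of the 19 luminal genes listed averaged near the floor of 4.09. Among these were Pgr at 4.24, Foxa1 at 4.65 and Krt19 at 4.82, each highest in mid60. For 3 arrays the mean correlation with the others was under 0.96, and these were mid79 (0.916), mid60 (0.931) and mid100 (0.954), against a median of 0.978. Erbb2 was 9.02 in mid60 and 9.25 in mid79, with a median of 11.70. Several results below rest on these arrays and are given with and without them.

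The milk genes differed in how far they varied. The median SD of the 18045 tested genes was 0.23 log2, and the milk genes lay far above it except for Csn3 and Wap, which were nearer. Values are log2 and are compared within a gene, since different probe sets have no common scale.

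Csn2 ranged from 4.82 in mid99 to 13.48 in mid186, with a median of 12.50. It averaged 12.01 ± 1.52 (SD, n = 50), and its 5th and 95th percentiles lay 10.4-fold apart. Most tumours were near the top of the scale, with 26 within 1 log2 unit of the highest value on their array, and a tail of low tumours followed, led by mid99, mid114 at 8.83 and mid47 at 9.83. Csn1s1 ranged from 4.52 in mid99 to 12.94 in mid36, with a median of 11.40, a mean of 11.11 ± 1.58 and a 23.1-fold span between the same percentiles. Its 3 lowest tumours were those of Csn2, with mid114 at 7.26 and mid47 at 8.02.

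Csn3 ranged from 10.64 in mid60 to 13.13 in mid177, with a median of 12.75. It was steady elsewhere. Its mean was 12.65 ± 0.40 (SD, n = 50) with a 1.82-fold span, and without mid79, mid60 and mid100 the SD was 0.20. In 43 tumours Csn3 was within 1 log2 unit of the top of the array, where the scale of an array flattens, and the part of this in its low spread was not tested.

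Lalba codes for alpha-lactalbumin, the partner of a galactosyltransferase in the making of lactose. It ranged from 8.71 in mid60 to 13.21 in mid130 and mid91, with a median of 12.62 and a mean of 12.22 ± 1.02 (SD, n = 50). Low values were found in mid60, mid111 at 8.79 and mid79 at 9.55, and 29 tumours were within 1 log2 unit of the top of the array. Wap, the whey acidic protein, ranged from 4.79 in mid145 to 6.59 in mid2, with a median of 5.32 and a mean of 5.43 ± 0.41. All values of Wap lay near the lower end of the scale, and mid2, mid91 at 6.55 and mid186 at 6.29 were highest.

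Btn1a1 was lowest in mid99, at 5.58, and highest in mid36, with a median of 8.57 and a mean of 8.72 ± 1.68 (SD, n = 50). Its values were spread over the whole range without a main level, with a 38.4-fold span. Lao1, an L-amino acid oxidase secreted into milk, ranged from 4.34 in mid111 to 11.28 in mid91, with a median of 6.24 and a mean of 6.84 ± 1.87, and a span of 55.8-fold between the 5th and 95th percentiles. In 13 tumours Lao1 was over 2 log2 units above its median. Xdh ranged from 8.99 in mid54 to 11.45 in mid75, with a median of 10.92, a mean of 10.78 ± 0.56 and a 3.58-fold span.

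Glycam1, a mucin-like glycoprotein of milk and of the high endothelial venules of lymph nodes, had another pattern. It ranged from 4.52 in mid85 to 9.58 in mid91, and 42 tumours were within 0.5 log2 units of the median of 4.74. Only mid91, mid60 at 9.42, mid100 at 8.60 and mid130 at 7.26 were over 2 log2 units above it, and the next tumour, mid79, had 5.64.

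**Figure D1:**
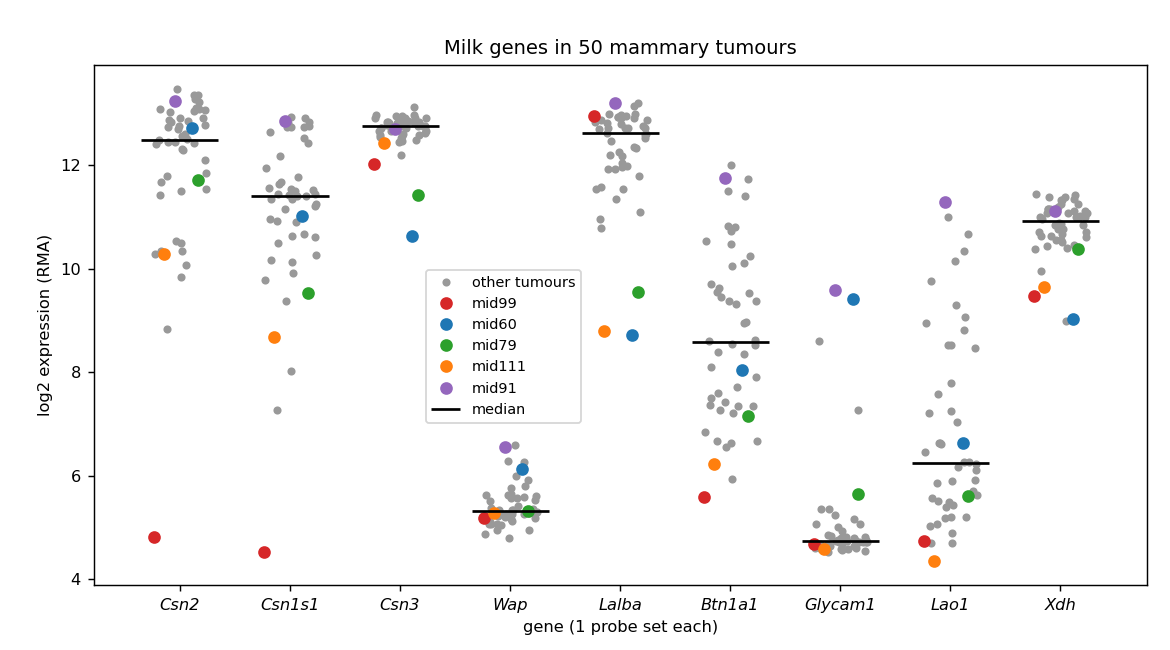
Log2 expression (RMA) of each of the 9 milk genes, 1 point per tumour (n = 50), with the median as a bar and 5 tumours in colour. Csn2 and Csn1s1 are lowest in mid99 at 4.82 and 4.52, Csn3 is lowest in mid60 at 10.64, and most Glycam1 values lie near 4.74.

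To find which milk genes move together, each tested gene was fitted on each milk gene in turn with limma, and p-values were adjusted by Benjamini-Hochberg over the other 18044 tested genes. A pair was called when the adjusted p was under 0.05 in both directions of the fit, and the larger of them is given. The threshold differs between milk genes because few or many genes follow them. The share of tested genes called in either direction was 0.0443% with Csn2, 0.0776% with Csn1s1, 2.53% with Xdh, 3.01% with Wap, 3.69% with Btn1a1, 5.48% with Lao1, 14.8% with Lalba and 21.5% with Csn3. Of the 28 pairs that leave out Glycam1, 11 were called, all with r above 0, and 27 had an r above 0. A pair that misses the threshold is not shown to be unrelated. In 6 pairs the call held under each of 10 other ways of processing, and these 6 link Csn2 with Csn1s1, Csn1s1 with Btn1a1 and Lao1, Btn1a1 with Lao1, and Wap with Btn1a1 and Lao1.

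Csn2 and Csn1s1 rose and fell together. Their r was 0.871 and their rho 0.787 over 50 tumours (each permutation p = 1e-05, the smallest that 100000 permutations can give), and for 1 SD of Csn2 the level of Csn1s1 was higher by 1.38 ± 0.11 log2 (slope ± SE, limma adjusted p = 2.2e-13). Without mid99 and mid114, the lowest tumours for Csn2, r was 0.738. Csn1s2a, an alpha-S2-like casein gene next to Csn2, followed Csn2 most closely of all tested genes, with r = 0.923 and rho = 0.881 (limma adjusted p = 1.94e-18), and it too was lowest in mid99, at 4.90 against a median of 11.59.

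The caseins lie in 1 cluster on mouse chromosome 5, so the tested genes on each side of Csn2, up to 10 a side in RefSeq order (GRCm38.p6), were set beside it. Of these 20 neighbours 2 were called with Csn2, Csn1s1 on one side and Csn1s2a on the other, where 0.0443% of all tested genes were. Csn1s2b, the next casein gene, had r = 0.499 and rho = 0.758 with Csn2. It missed the threshold on the log2 scale (limma adjusted p = 0.0949) and passed it on ranks (adjusted p = 0.000629). Odam, a gene of dental epithelium between Csn1s2b and Csn3, had r = 0.140, and the sulfotransferase genes Sult1e1 and Sult1d1 beyond Csn1s1 had r = 0.075 and r = -0.056. The secretory gene Prol1, beyond Csn3, had r = 0.071. Calls in this stretch fell on casein genes.

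The upstream sequences of the 3 genes that moved together most closely are shown because STAT5 is the known activator of caseins. The sequence table of RefSeq (GRCm38.p6) held 6 of the 9 milk genes, namely Csn2, Csn1s1, Wap, Lalba, Glycam1 and Lao1, as well as Csn1s2a. Each line gives the 150 bases before the start of the gene, 5′ to 3′ on the strand of the gene, with a STAT5 motif (TTCNNNGAA, the same on both strands) in capitals. They are chr5:87699426-87699575 on the minus strand for Csn2, chr5:87666058-87666207 on the plus strand for Csn1s1 and chr5:87774300-87774449 on the plus strand for Csn1s2a.
Csn2: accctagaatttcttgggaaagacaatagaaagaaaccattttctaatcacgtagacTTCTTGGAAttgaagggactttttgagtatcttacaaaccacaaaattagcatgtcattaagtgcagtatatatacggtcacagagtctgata
Csn1s1: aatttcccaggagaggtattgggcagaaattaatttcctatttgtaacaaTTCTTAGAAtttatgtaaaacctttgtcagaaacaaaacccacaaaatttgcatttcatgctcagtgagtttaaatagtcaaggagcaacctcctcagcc
Csn1s2a: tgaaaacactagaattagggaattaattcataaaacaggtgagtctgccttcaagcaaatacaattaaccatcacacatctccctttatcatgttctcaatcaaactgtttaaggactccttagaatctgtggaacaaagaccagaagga

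The motif began 93 bases before the start of Csn2 and 100 before that of Csn1s1. It was not found in the 250 bases before Csn1s2a, whose values followed those of Csn2 as closely, nor in the same window of Wap, Lalba and Lao1. Glycam1 also held it. Of 32851 promoters, 7.02% held the motif within 250 bases and 4.09% within 150. A match is a run of letters and was not tested as a binding site.

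Kappa-casein was not called with the other caseins over all tumours, and its correlations with them were low. For Csn2 with Csn3 r was 0.214 (permutation p = 0.0927) and rho 0.219 (permutation p = 0.126), with a limma adjusted p of 0.833. For Csn1s1 with Csn3 r was 0.323 (permutation p = 0.033) and rho 0.306 (permutation p = 0.0315), with a limma adjusted p of 0.547. Without mid79, mid60 and mid100, r rose to 0.511 and 0.509, while rho was 0.224 and 0.272 and the pairs were still not called. Csn3 was 12.02 in mid99, the third lowest value of Csn3, where Csn2 was 4.82. In mid60 the order was turned, with Csn3 at its lowest, 10.64, and Csn2 at 12.72, above the median of Csn2.

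Csn3 was called instead with Lalba, with r = 0.602 (permutation p = 0.00047, limma adjusted p = 0.000209), but that relation rested on a few tumours. Its rho was 0.232 (permutation p = 0.108) and its r without mid60 and mid79 was 0.150. Both genes were low in those tumours, with Lalba at 8.71 and 9.55. Of all tested genes 21.5% were called with Csn3, and the genes that followed it most closely changed in the same way. Chrm3, a muscarinic receptor, went from r = 0.881 to 0.388 without mid60 and mid79, Socs2, an inhibitor of cytokine signalling and a STAT5 target, from 0.877 to 0.459, and the water channel Aqp5 from 0.849 to 0.258. Without mid79, mid60 and mid100, 55 genes were called higher and 70 lower with Csn3, against 1809 and 2075 over all tumours.

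**Figure D2:**
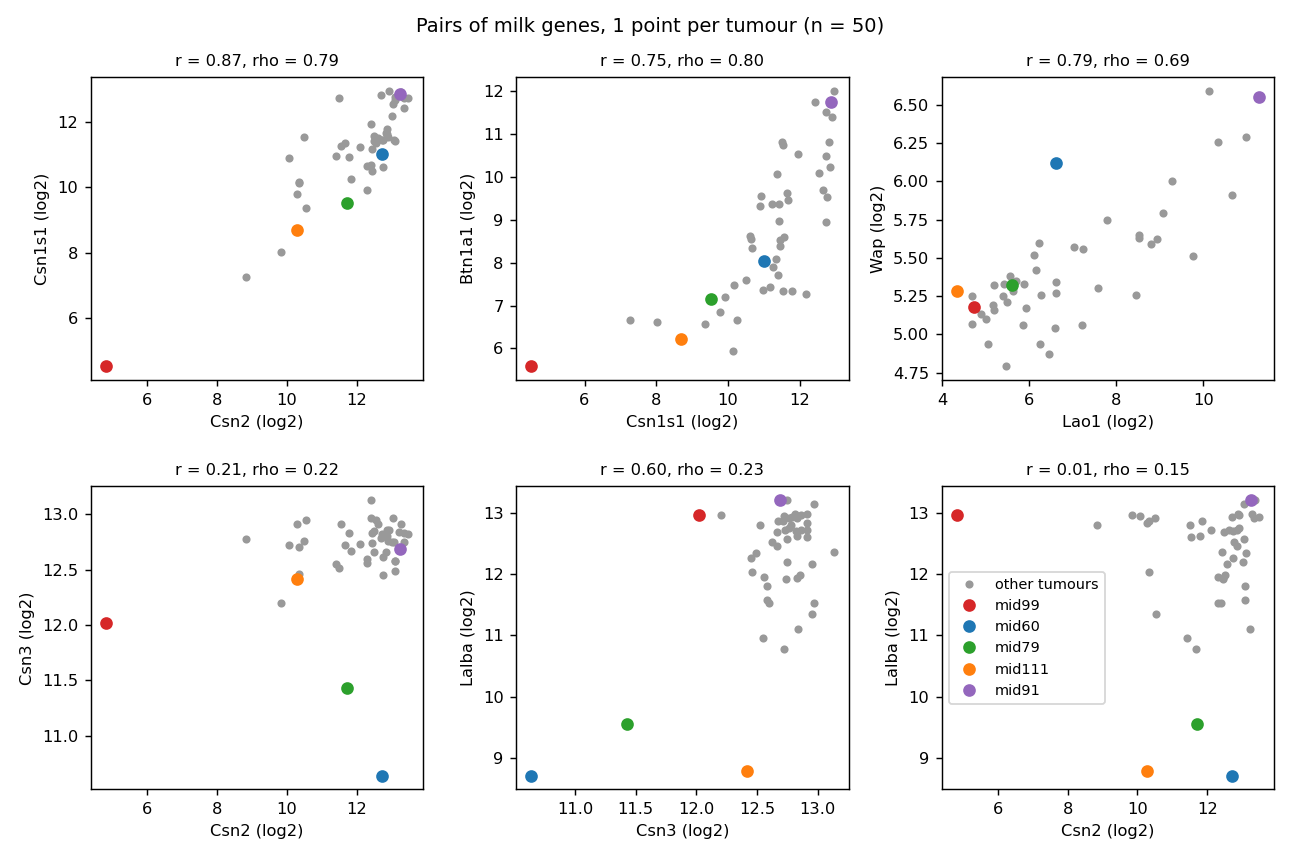
Log2 levels of 6 pairs of milk genes, 1 point per tumour (n = 50), with 5 tumours in colour. Csn2 with Csn1s1, Csn1s1 with Btn1a1 and Lao1 with Wap rise together, while the r of 0.60 between Csn3 and Lalba rests on mid60 and mid79, and Csn2 with Lalba has r = 0.01.

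Lalba was not called with the caseins Csn2 and Csn1s1. With Csn2 its r was 0.007 (permutation p = 0.956) and its rho 0.151 (permutation p = 0.291), with a limma adjusted p of 0.999. With Csn1s1 its r was 0.167 (permutation p = 0.231) and its rho 0.289 (permutation p = 0.043), with a limma adjusted p of 0.888. In mid99, where Csn2 and Csn1s1 were lowest, Lalba was 12.96, above its median. In mid114 and mid47, the next lowest for both caseins, Lalba was 12.81 and 12.97. Low Lalba in turn came with ordinary Csn2 in mid60, at 12.72. In mid111 all of them were among the 5 lowest tumours, with Lalba at 8.79, Csn2 at 10.28 and Csn1s1 at 8.68, and in mid79 Lalba was 9.55 and Csn1s1 9.52.

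The tested genes that followed Lalba most closely were not milk genes. Secisbp2l, a relative of a selenoprotein translation factor, had r = 0.830 with Lalba and 0.743 without mid60 and mid111, Npnt, the matrix protein nephronectin, 0.775 and 0.727, the GTPase gene Rasef 0.758 and 0.766, and the chloride channel Ano1 0.757 and 0.660. These relations kept an r of at least 0.660 without mid60 and mid111, while that of Lalba with Csn3 went from 0.602 to 0.392. With Lao1, Lalba had r = 0.399 and rho = 0.509. That pair missed the threshold on the log2 scale (limma adjusted p = 0.0539) and passed it on ranks (adjusted p = 0.0146), and leaving out any 1 of 8 tumours changed the call.

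Btn1a1, Lao1 and Wap formed the other group of milk genes that rose together, and Csn1s1 joined it. For Csn1s1 with Btn1a1 r was 0.751 and rho 0.802 (each permutation p = 1e-05), and for 1 SD of Csn1s1 the level of Btn1a1 was higher by 1.26 ± 0.16 log2 (slope ± SE, limma adjusted p = 5.97e-07). Without mid99 and mid114 r was 0.777, so the relation did not depend on the tumours with the lowest casein. For Csn1s1 with Lao1 r was 0.580 and rho 0.701 (limma adjusted p = 0.0132).

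Csn2 was further from this group than Csn1s1. With Btn1a1 its r was 0.567 and its rho 0.602 (limma adjusted p = 0.0255), and this call ended on ranks (adjusted p = 0.0547) and when mid7, mid99, mid114, mid128 or mid186 was left out. With Lao1 the r of Csn2 was 0.415 and its rho 0.547 (limma adjusted p = 0.312). Whether the correlations of Csn2 and Csn1s1 with these genes differ was not tested.

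Wap and Lao1 had the second highest r of the 28 pairs, 0.789, while their rho of 0.694 was below those of 3 other pairs besides the caseins (each permutation p = 1e-05, limma adjusted p = 7.99e-08) and r = 0.737 without mid2 and mid91. For 1 SD of Wap the level of Lao1 was higher by 1.47 ± 0.16 log2 (slope ± SE). The genes share high tumours, since mid91, mid186 and mid120 had Lao1 at 11.28, 10.99 and 10.34 and Wap at 6.55, 6.29 and 6.26. For Btn1a1 with Lao1 r was 0.741 and rho 0.696 (limma adjusted p = 2.13e-06), and for Wap with Btn1a1 r was 0.561 and rho 0.520 (limma adjusted p = 0.00496). Wap missed the threshold with Csn1s1 (r = 0.395, rho = 0.485, limma adjusted p = 0.325) and with Csn2 (r = 0.262, rho = 0.345, limma adjusted p = 0.734). Wap with Lalba had r = 0.152, and Wap with Csn3 r = -0.020, the only r below 0 among the 28 pairs.

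The upstream bases of Wap and Lao1 are given for comparison, and neither holds the motif. They are chr11:6638650-6638799 on the minus strand for Wap and chr4:118961817-118961966 on the plus strand for Lao1 (RefSeq, GRCm38.p6).
Wap: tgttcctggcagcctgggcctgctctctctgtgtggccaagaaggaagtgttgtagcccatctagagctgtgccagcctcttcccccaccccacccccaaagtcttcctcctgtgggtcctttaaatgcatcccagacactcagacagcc
Lao1: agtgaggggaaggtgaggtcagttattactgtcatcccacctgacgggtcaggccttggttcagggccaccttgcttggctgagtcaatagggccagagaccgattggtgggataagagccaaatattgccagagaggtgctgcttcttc

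The closest partners outside the milk genes are given for each of the 3. Btn1a1 was followed by Ogfrl1, a relative of the opioid growth factor receptor, with r = 0.796, by Plin2, the coat protein of lipid droplets, with r = 0.767, and by the kinase-like gene Stk40 with r = 0.737. Lao1 was followed by Tmem64, a membrane protein, with r = 0.716, by Btn2a2, another butyrophilin, with r = 0.715, and by the neuropeptide gene Npy with r = 0.704. Wap was followed by Cnp, a phosphodiesterase of myelin, with r = 0.740 and by Spink5, a protease inhibitor of epithelia, with r = 0.713. Each of these had an r of at least 0.610 when the 2 most distant tumours of its milk gene were left out.

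Xdh, whose product is an enzyme of purine breakdown as well as a globule protein, followed only part of the Btn1a1, Lao1 and Wap group. It missed the threshold with Lao1 (r = 0.285, rho = 0.424, limma adjusted p = 0.278) and with Wap (r = 0.061, rho = 0.319, limma adjusted p = 0.886). Xdh was called with Csn3 (r = 0.558, rho = 0.450, limma adjusted p = 0.00453), Lalba (r = 0.474, rho = 0.354, limma adjusted p = 0.0259) and Btn1a1 (r = 0.443, rho = 0.544, limma adjusted p = 0.0413). None of these calls held in every setting. Without mid60, the calls with Csn3, Lalba and Btn1a1 ended, and for Btn1a1 the same was true of 13 other tumours. Xdh with Csn2 had r = 0.531 and rho = 0.564 and missed the threshold (limma adjusted p = 0.0594), and it was called when mid38, mid47, mid60, mid79 or mid177 was left out. With Csn1s1 r was 0.497 and rho 0.556 (limma adjusted p = 0.0997), and the pair was called without mid54 or mid60.

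In mid54, where Xdh was lowest at 8.99, Csn2 was 10.07 but Lao1 9.29 and Lalba 12.95. Without mid54 and mid60 the r of Xdh with Csn2 was 0.640 and with Csn1s1 0.638. The genes that followed Xdh most closely were Fkbp11, a peptidyl-prolyl isomerase of secretory cells, with r = 0.743, the aminopeptidase Anpep with 0.727 (a call that ended without mid54 and mid60), the fatty acid transporter Cd36 with 0.680, the milk protein gene Wfdc18 with 0.672 and Gpat4, which starts triglyceride synthesis, with 0.664. Cd36 was also among the closest partners of Csn2, with r = 0.618 (limma adjusted p = 0.00523), and was lowest in mid99 at 6.69. That call ended on ranks (adjusted p = 0.104) and without mid99 and mid114 (adjusted p = 0.097).

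**Figure D3:**
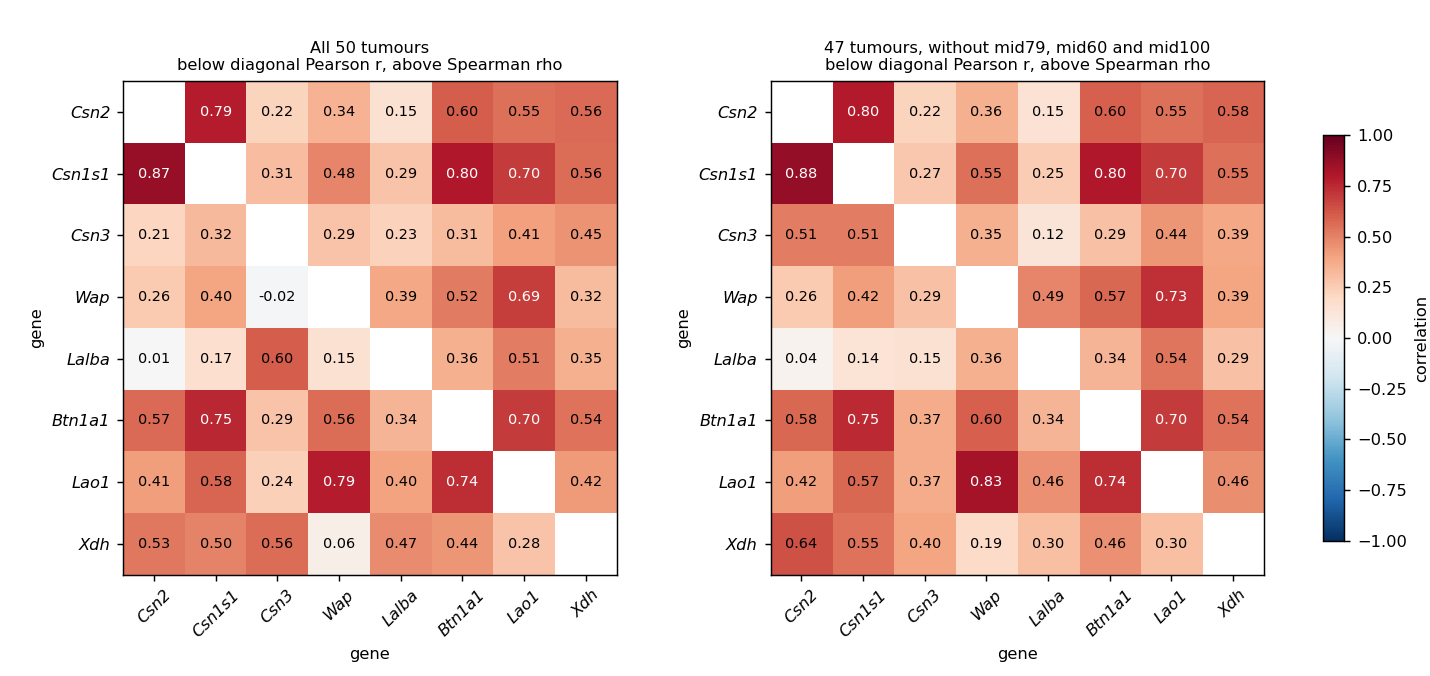
Correlations of 8 milk genes over all 50 tumours (left) and without mid79, mid60 and mid100 (right), with Pearson r below the diagonal and Spearman rho above it. Csn2 with Csn1s1 is at r = 0.87 in the left panel, Lao1 is close to Wap and Btn1a1 in both panels, and Csn3 with Lalba falls from 0.60 to 0.15.

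Glycam1 is given apart, because mid91, mid60, mid100 and mid130 stand away from the other tumours and weigh heavily in a correlation over all 50. Of the tested genes 13.0% were called with Glycam1, 1159 (6.42%) higher and 1194 (6.62%) lower, and without mid60 the counts were 69 and 37. Without all 4 of these tumours the counts were 667 and 961, or 9.02% of the tested genes in either direction. With limma on ranks, 0 tested genes were called with Glycam1, against 2747 at an unadjusted p under 0.05, and the highest rho with another milk gene was 0.410, with Lao1. Among the tumours without those 4, r lay between -0.292 with Csn3 and 0.269 with Lao1. The 4 high tumours were unlike each other in the other milk genes. In mid91 and mid130 Csn2, Csn1s1, Lalba, Btn1a1 and Lao1 were above their medians, with Btn1a1 at 11.75 and 11.74, while in mid60 Lalba and Csn3 were at their lowest, and in mid100 Btn1a1 was 8.60, near its median.

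Because Glycam1 is also made in lymph nodes, the mean level of 10 genes of B cells and lymph node was set beside it. It was 6.15 in mid60, 5.41 in mid100 and 7.14 in mid79, above the other 45 tumours without mid91 and mid130, which lay between 4.60 and 5.11. It was 4.71 in mid91 and 4.60 in mid130, within the range of the others. Of the 10 genes, Ms4a1, Cd79a, Cd79b, Blk, Cd22, Pax5 and Fcrla were highest in mid79 and Cxcl13 in mid100. The remaining members went another way, with Madcam1 between 5.13 and 5.61 and highest in mid65. Chst4 lay between 4.0 and 4.53 and was highest in mid16. Skin and squamous genes averaged 8.64 in mid60 and between 4.93 and 5.28 in the 45. The part of these cells in the level of Glycam1 in mid60 and mid100 was not tested.

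The tumours also show which genes part company. Mid91 was among the 5 highest tumours for 7 of the 9 genes, all but Csn3 and Xdh, mid130 for 5 and mid186 for 4. Mid111 was among the 5 lowest for 8 of the 9, all but Wap. In mid111 the luminal list averaged 8.68, against a median of 8.54 over the tumours, and Erbb2 was 11.63. Factors of the secretory cell were low there, with Elf5 at 8.48 and Stat5a at 6.99, each the second lowest value. Erbb4 was 5.01 against a median of 7.56, and the prolactin and STAT5 list averaged 7.71 against a median of 8.06.

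In mid99 the low values were uneven. It was among the 5 lowest for Csn2, Csn1s1, Csn3, Btn1a1, Lao1 and Xdh, while Lalba was 12.96, Elf5, the alveolar transcription factor, was at its median of 9.36, and Stat5a was 8.10 against a median of 7.77. Erbb4, a receptor that acts through STAT5 in the gland, was higher in mid99 than in any other tumour, at 9.01. Mid60 was among the 5 lowest for Csn3, Lalba and Xdh and among the 5 highest for Wap and Glycam1.

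**Figure D4:**
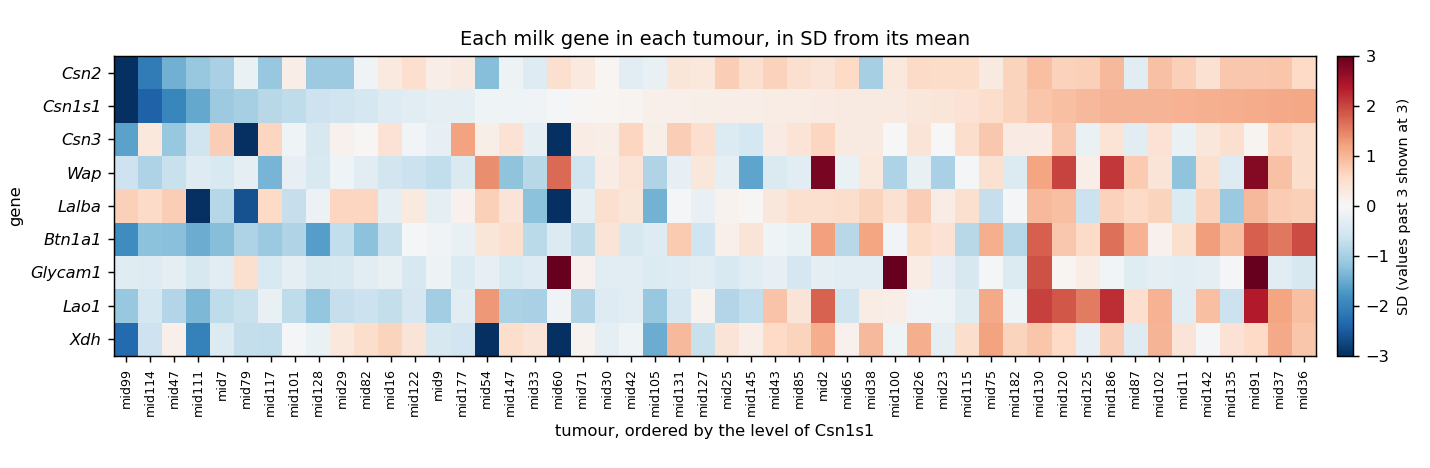
Level of each milk gene in each tumour in SD from the mean of the gene, with tumours ordered by Csn1s1 from lowest (mid99) to highest (mid36). Csn2, Btn1a1 and Lao1 tend to follow that order, while Lalba and Csn3 are low in mid60 and mid79 and near or above their means in most other tumours.

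Genes around milk secretion were then counted by role, with the 0.05 threshold on the limma p-values adjusted over all tested genes. Of all tested genes, 2.11% rose and 1.57% fell with Btn1a1, and 3.44% and 2.04% with Lao1. With Wap these shares were 1.88% and 1.13%, with Xdh 1.19% and 1.34%, with Lalba 7.75% and 7.01%, and with Csn3 10% and 11.5%. They were smallest for Csn2, at 0.0388% and 0.00554%, and Csn1s1, at 0.0665% and 0.0111%. The 4 strongest calls of each list and milk gene (all where there were fewer), 83 in all, were followed through other settings. Of these 34 ended on ranks, 39 without the 2 most distant tumours of the milk gene and 26 without mid79, mid60 and mid100, while 34 held in all 3 settings. Those that held were 2 of 15 with Csn3, 7 of 15 with Lalba, 6 of 12 with Btn1a1, 8 of 16 with Lao1, 3 of 7 with Wap and 6 of 14 with Xdh.

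Among 15 other milk protein genes, Btn1a1 had 7 that rose with it and 0 that fell, and Lao1 had 6 and 0. With Btn1a1 they were Csn1s2a (r = 0.730), the antibody transporter Pigr (0.570), the globule mucin Muc15 (0.523), the folate receptor Folr1 (0.525), Csn1s2b, Wfdc18 and Mfge8. Mfge8, or lactadherin, also rose with Wap (r = 0.553) and Lao1 (r = 0.455), as did Muc1, another globule mucin, with r = 0.452 and 0.438. The calls of Muc1 with both and of Mfge8 with Lao1 ended on ranks and without the 2 most distant tumours. Csn2 and Csn1s1 had 1 each, Csn1s2a.

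Of 22 genes of milk fat synthesis and droplets, 7 rose and 1 fell with Btn1a1, and 4 rose and 0 fell with Lao1. Plin2 rose with Btn1a1 (slope 0.46 ± 0.05 log2 per SD, limma adjusted p = 2.55e-07), with Lao1 (r = 0.690) and with Wap (r = 0.558). Scd1, which desaturates fatty acids, had r = 0.504 with Btn1a1 and 0.422 with Lao1, and Acly, which makes acetyl-CoA for fat synthesis, had 0.496 and 0.467, all of them called. The calls of Acly ended on ranks (limma adjusted p = 0.0911 and 0.0907), and those of both genes ended without the 2 most distant tumours. Thrsp, an activator of fat synthesis, rose with Lao1 (r = 0.651) and with Wap (r = 0.535). Dgat2, an enzyme of the last step of triglyceride synthesis, fell with Btn1a1 (r = -0.468, a call that ended without the 2 most distant tumours) and with Lalba (r = -0.590). Xdh had 4 that rose, namely Cd36, Gpat4, Me1 and Lpin1, and the caseins Csn2 and Csn1s1 had 1, Cd36. With Csn3, 6 rose and 5 fell, and without mid79, mid60 and mid100 1 rose and 0 fell.

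Of 18 genes of lactose synthesis and milk transport, 7 rose and 2 fell with Lalba. B4galt1, the galactosyltransferase that pairs with alpha-lactalbumin, rose with Lalba (r = 0.632, rho = 0.733, limma adjusted p = 8.31e-05, and r = 0.610 without the 3 arrays). It also rose with Btn1a1 and Lao1, each with r = 0.581, and Slc34a2, a phosphate transporter, rose with Lao1 (r = 0.670). Aqp5 and the ion transporter Slc12a2 rose with Lalba over all tumours, with r = 0.677 and 0.636. Without mid79, mid60 and mid100 these were 0.336 and 0.354 and were not called, and 3 genes of the list rose and 1 fell with Lalba. With Csn2 and Csn1s1, 0 of the 18 were called in either direction by limma or on ranks, against 7 and 4 at an unadjusted limma p under 0.05. Of all 18044 tested genes, 1276 and 1319 had such a p, and 0.0443% and 0.0776% were called. The count of 0 thus does not show these genes to be unrelated to the 2 caseins.

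The prolactin and STAT5 list had 21 tested genes, and the prolactin receptor itself was not analysed here. With Csn2 and Csn1s1, 0 of the 21 were called in either direction by limma, where 0.0443% and 0.0776% of all tested genes were. At an unadjusted p under 0.05 there were 3 and 4, against 1276 and 1319 of all 18044 tested genes. On ranks 0 were called and 3 and 8 had such a p, against 1337 and 1780 of the 18044. The counts of 0 thus do not show the pathway genes to be unrelated to these caseins. Stat5a, which carries the prolactin signal to the nucleus, had r = 0.190 with Csn2 and 0.296 with Csn1s1. With Lalba, 10 rose and 3 fell, and without mid79, mid60 and mid100 6 rose and 0 fell. Nfib, a nuclear factor of milk gene promoters, had r = 0.716 with Lalba (limma adjusted p = 3.69e-06) and 0.631 without the 3 arrays, Erbb4 0.650 and 0.534, and Elf5 0.617 and 0.558. These were called in both sets of tumours. Stat5a rose with Lao1 (r = 0.557), Lalba (r = 0.488), Btn1a1 (r = 0.486), Xdh (r = 0.457) and Wap (r = 0.448). Gata3, a factor of luminal cells, rose with Lalba (r = 0.592, and 0.647 without the 3 arrays), Btn1a1 (r = 0.475) and Lao1 (r = 0.435). Without the 2 most distant tumours the call of Stat5a with Lao1 held, while those of Stat5a with Btn1a1 and Wap and of Gata3 with Btn1a1 and Lao1 ended. With Xdh, Stat5b (r = 0.594) and Cish, a STAT5 target (r = 0.540), rose, and the call of Stat5b ended on ranks. With Csn3, 9 rose and 4 fell over all tumours. Without the 3 arrays 0 were called by limma, with 4 higher and 1 lower at an unadjusted p under 0.05. Socs2, at 7.62 in mid79 against a median of 11.15 and lower still in mid60, was among the 9.

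**Figure D5:**
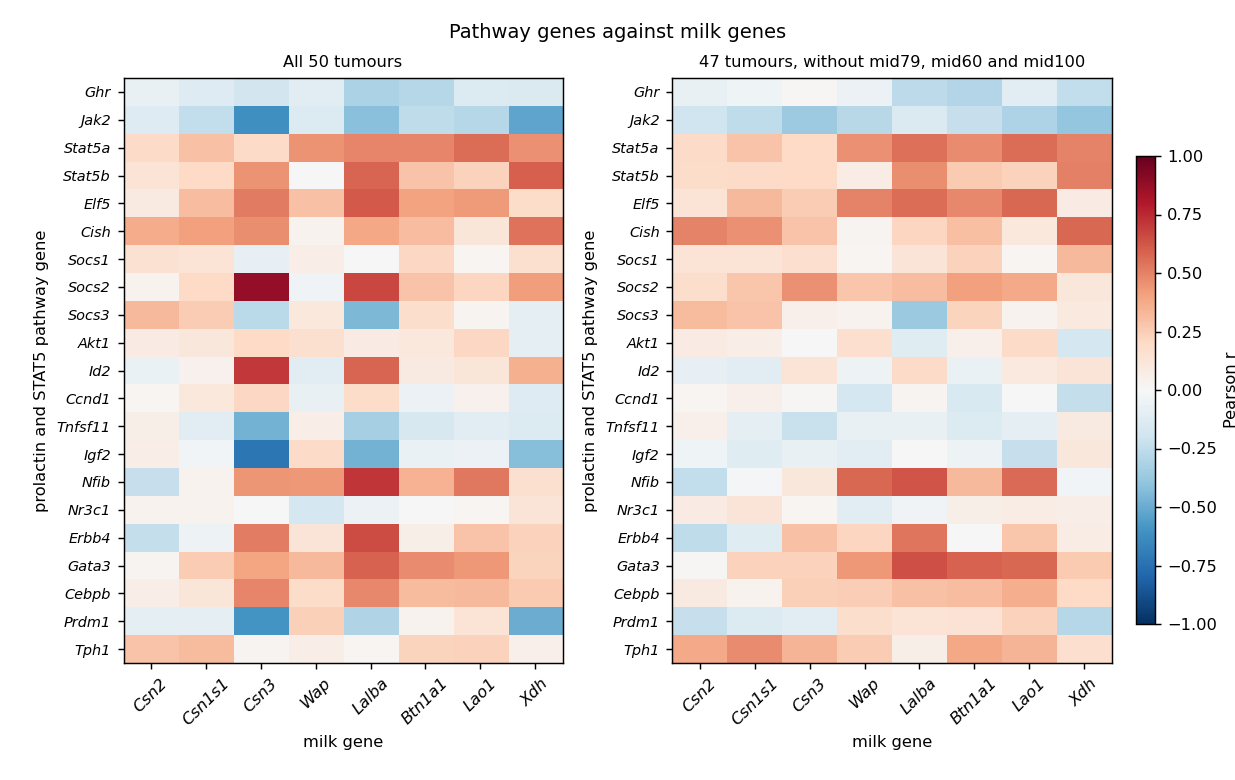
Pearson r of 21 prolactin and STAT5 pathway genes with 8 milk genes over all 50 tumours (left) and without mid79, mid60 and mid100 (right). With Csn2 and Csn1s1 0 genes were called, where 0.0443% and 0.0776% of all tested genes were. The column of Csn3 pales without the 3 arrays, and Nfib, Elf5, Erbb4 and Gata3 keep positive values with Lalba.

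Genes that mark the regressing gland after weaning were counted as well. Of 14 such genes 2 rose with Csn2, Clu, or clusterin (r = 0.581), and Lbp, which binds bacterial lipopolysaccharide (r = 0.569), and with Csn1s1 these and Cd14 rose. With limma on ranks 0 of the 14 were called with either casein, and without mid99 and mid114 the calls of Clu and Lbp with Csn2 ended (adjusted p = 0.284 and 0.252). The call of Lbp with Csn1s1 held without those tumours (limma adjusted p = 0.00583). With Csn3, 4 rose and 2 fell over all tumours, and 0 were called without mid79, mid60 and mid100 or on ranks. With Btn1a1, Cd14, Lbp and Clu rose, and 1 of the 14 was called on ranks.

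Markers of other cell types moved with some milk genes and not with others. With Csn3 over all tumours, 8 of 8 skin genes, 8 of 10 genes of B cells and lymph node, 10 of 12 adipocyte genes, 8 of 13 endothelial genes, 7 of 14 fibroblast genes and 5 of 14 T and NK cell genes fell, 46 of 70 different genes in all. Without mid79, mid60 and mid100, 0 of the 70 were called with Csn3 by limma and 3 had an unadjusted p under 0.05, and on ranks over all tumours 0 were called and 15 had such a p. With Lalba 7 of 10 B cell genes and 7 of 8 skin genes were among 15 that fell, and without the 3 arrays 0 fell and 3 rose, 2 of them adipocyte genes. The adipocyte list averaged 11.05 in mid79 and 7.50 in mid100, and between 5.34 and 7.09 in the 45 other tumours. The part of these cells in the results for Csn3 and Lalba was not tested. With Csn2, Csn1s1, Wap, Btn1a1 and Lao1 over all 50 tumours, 0 of the 70 genes were called by limma, against 1, 2, 1, 4 and 3 at an unadjusted p under 0.05. Without the 3 arrays 1 was called with Wap, 3 with Btn1a1 and 2 with Lao1, all higher. These were adipocyte genes but for 1 T and NK cell gene with Btn1a1. On ranks 2 were called with Lao1, both higher. Outside the 70, 4 of 13 macrophage genes, 3 of 5 neutrophil genes and 4 of 9 basal genes fell with Csn3 over all tumours. Without the 3 arrays 0 in these lists were called with Csn3. Of 9 skeletal muscle genes 0 were called with Csn3 in either set of tumours. With Btn1a1, 0 of the 13 macrophage genes were called over all tumours, while 2 rose without the 3 arrays and 1 on ranks.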

How the data were processed

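RNA of 50 tumour biopsies, extracted with Trizol per the labels' protocols and hybridised as 6 ug of labelled cRNA, was read on Affymetrix arrays, 1 array a tumour. The authors deposited log2 values normalized by RMA, per the submitters' processing notes, which subtracts background, quantile normalizes and sums probes. The version of RMA and the role of the build mm8, which the same notes name, are not given in the sources used here. RMA equalises the arrays, and the scale of an array flattens near its top.

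Of 34472 probe sets 23521 had 1 gene in the platform annotation, 1814 several and 9137 none, and 23328 of the first were matched to the RefSeq gene table (GRCm38.p6) by Entrez identifier. Where a gene had several (1082 of 22180 genes) the probe set with the highest mean was used. A floor at the 25th percentile of the means (4.09) left 18045 genes. No array was a copy of another, and the highest r between arrays was 0.992. All tumours are 1 group, so p-values measure the spread between tumours.

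Each tested gene was fitted on each standardised milk gene with limma 3.58.1 (lmFit, eBayes with trend, R 4.3.3), and p-values were adjusted by Benjamini-Hochberg over the other 18044. Correlations have two-sided permutation p-values (100000 permutations, Python 3.11.15, scipy 1.17.1). The fit was also tried on simulated data, with the real Csn2 values as predictor. Each gene was drawn independently from a normal distribution with its own mean and SD. The fit found 84% of 100 genes given a slope of 0.2 log2 per SD and 97% of those given 0.5, with 8 false calls among 18044 genes. The draws hold no correlation between genes and no outlying arrays, so these rates do not measure the error in the real data. Named genes are the milk genes, up to 5 closest called partners of each that kept a positive r without its 2 most distant tumours, up to 4 called members of each pathway list and milk gene by moderated t, and the neighbours of Csn2, 10 a side. Further genes (among them Epcam, Krt8, Erbb2, Cd14, Clu and Lbp) were named after their values were seen. The members and lists were chosen with earlier results of these data known. Alternatives changed the filter, probe set, normalization, array weights, ranks, the tumours used and covariates for other cell types, and each tumour was left out in turn.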

Additional observations from a re-analysis of the deposited data

How the results depend on the processing

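The number of called pairs, 11 of the 28 without Glycam1, lay within 1.5 times under every alternative run except without the 2 most distant tumours of the gene fitted on, where it was 6, and from 9 to 13 when 1 tumour was left out. The share of tested genes called with a milk gene was less stable, and the cause was not tested. Over all tumours it was 0.0443% for Csn2, 0.0776% for Csn1s1, 21.5% for Csn3, 3.01% for Wap, 14.8% for Lalba, 3.69% for Btn1a1, 13.0% for Glycam1, 5.48% for Lao1 and 2.53% for Xdh. The shares that moved by at least 1.5 times follow by setting. With another quantile normalization it was 0.0665% for Csn2. With a stricter floor, fewer genes were tested and they were 0.132% for Csn2, 0.147% for Csn1s1, 4.63% for Wap, 5.65% for Btn1a1 and 8.62% for Lao1. Without the 2 most distant tumours they were 0.0166% for Csn2, 0.421% for Csn1s1, 0.615% for Csn3, 1.11% for Btn1a1, 5.94% for Glycam1, 2.70% for Lao1 and 0.704% for Xdh, and on ranks 0.0277% for Csn2, 2.15% for Csn3, 2% for Wap, 8.33% for Lalba, 0% for Glycam1 and 0.992% for Xdh. With array weights they were 0.310% for Csn2, 0.144% for Csn1s1, 0.743% for Csn3, 5.26% for Wap, 5.24% for Lalba, 13.3% for Btn1a1, 1.20% for Glycam1, 11.4% for Lao1 and 0.687% for Xdh. Without mid79, mid60 and mid100 they were 0.272% for Csn2, 0.255% for Csn1s1, 0.693% for Csn3, 4.79% for Wap, 7.10% for Lalba, 7.80% for Btn1a1, 0.188% for Glycam1, 8.60% for Lao1 and 1.03% for Xdh. With levels of other cell types as covariates they were 0.238% for Csn2, 0.216% for Csn1s1, 9.79% for Csn3, 6.53% for Wap, 5.64% for Btn1a1, 3.11% for Glycam1, 9.75% for Lao1 and 1.59% for Xdh. Without mid91, mid60, mid100 and mid130, a choice made after seeing the data, they were 14% for Csn3, 2% for Wap, 8.56% for Lalba, 1.92% for Btn1a1, 3.42% for Lao1 and 0.643% for Xdh. Leaving out 1 tumour gave 0.0222% to 0.122% for Csn2, 0.061% to 0.216% for Csn1s1, 12.6% to 23.9% for Csn3, 1.83% to 4.0% for Wap, 9.09% to 17.8% for Lalba, 2.07% to 5.14% for Btn1a1, 0.587% to 19.2% for Glycam1, 3.34% to 6.97% for Lao1 and 0.737% to 4.66% for Xdh. The tumours that moved a share by over 1.5 times were mid60 for Csn1s1, Csn3, Glycam1, Lalba and Xdh, mid79 for Csn2 and Csn3, mid99 for Csn2, Csn1s1 and Xdh, mid100 for Csn2 and Glycam1, mid54 for Xdh, mid186 for Wap and Btn1a1, mid130 for Lao1 and Btn1a1, mid128 and mid111 for Csn2 and Btn1a1, mid91 and mid36 for Btn1a1, and mid7, mid114, mid177 and mid47 for Csn2.

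Summed over the 8 milk genes other than Glycam1, calls numbered 30 in the list of other milk proteins, 37 in that of milk fat, 31 in that of lactose and transport and 39 in the prolactin and STAT5 list. The last 3 fell to 15 each without the 2 most distant tumours and to 23, 16 and 17 on ranks. The lactose sum was 20 and the prolactin sum 21 without mid79, mid60 and mid100, and the prolactin sum was 24 with array weights and 24 without mid91, mid60, mid100 and mid130. Calls of pairs by rho ended for Csn2 with Btn1a1 (0.602), Csn3 with Lalba (0.232), Csn3 with Xdh (0.450) and Lalba with Xdh (0.354), and began for Lalba with Lao1 (0.509). Without the 2 most distant tumours of the first gene r was 0.523 for Csn2 with Btn1a1, 0.150 for Csn3 with Lalba, 0.396 for Csn3 with Xdh, 0.168 for Lalba with Xdh and 0.423 for Btn1a1 with Xdh, and these pairs were no longer called when each direction of the fit left out its own 2. Without mid79, mid60 and mid100 calls ended for Csn3 with Lalba (0.153), Csn3 with Xdh (0.395), Lalba with Xdh (0.302) and Btn1a1 with Xdh (0.459), and began for Csn2 with Xdh (0.635), Csn1s1 with Xdh (0.546) and Lalba with Lao1 (0.457). The spread as a scaled median absolute deviation was 0.88 for Csn2, 0.16 for Csn3, 0.52 for Lalba and 0.15 for Glycam1, and the SD of Csn3 without the 3 arrays was 0.20. The sign turned for Aldoc with Csn3 (0.692 over all tumours, -0.171 on ranks, -0.174 without the 2 most distant tumours and -0.211 without the 3 arrays), Cel with Csn3 (-0.484, then 0.032, 0.075 and 0.076, and 0.118 without the 4 tumours high in Glycam1), Aldoc with Lalba (0.530, then -0.006 on ranks and -0.021 without the 3 arrays) and Lcn2 with Lalba (0.508, then -0.007 and -0.088). Csn2, Csn3 and Lalba lie near the top of the scale in most tumours and Wap near its lower end, which limits how small a difference in them can be measured.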
